A study of Homo sapiens with 20 samples.

Results

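The genes described here are 8 enzymes of amino acid metabolism: ASNS, ASS1, ASL, CTH, CBS, CHAC1, PYCR1 and ALDH18A1. They were taken from the 60483 listed genes by gene symbol, through the Ensembl identifier with its version dropped. All 8 were listed once, and all 8 passed the filter on low values, so they are 8 of the 15687 genes tested. ASNS makes asparagine, ASS1 and ASL make arginine, ALDH18A1 and PYCR1 make proline, CBS and CTH make cysteine, and CHAC1 breaks down glutathione, which holds cysteine.

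RNA sequencing was run on total RNA of 5 human multiple myeloma cell models, each given DMSO (the solvent control) or indirubin-3'-monoxime (I3MO), an indirubin kinase inhibitor. ANBL6, ARP1, RPMI8226 and U266 are established lines labelled wild type, and ANBL6BR is labelled as a bortezomib-resistant ANBL6 line. Whether ANBL6BR comes from the ANBL6 cells used here was not tested. I3MO was given at 5 µM to ANBL6 and ANBL6BR and at 10 µM to ARP1, RPMI8226 and U266, and across these sets the model and the dose cannot be told apart. Each of the 10 groups of model and treatment had 2 libraries, 20 in all. The length of treatment, the number of clones behind ANBL6BR and whether replicates came from separate cultures are not given in the sources used here. If they did not, the p-values reflect technical spread only.

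Asparagine synthetase moves an amide group from glutamine to aspartate. Argininosuccinate synthase joins citrulline to aspartate and argininosuccinate lyase splits the product into arginine and fumarate, so the pair works in series. Pyrroline-5-carboxylate synthase (ALDH18A1) and pyrroline-5-carboxylate reductase (PYCR1) turn glutamate into proline, and cystathionine beta-synthase (CBS) and cystathionine gamma-lyase (CTH) carry sulfur from homocysteine to cysteine. Several of these genes are textbook targets of ATF4, a transcription factor made when amino acids run short or when proteins misfold, and myeloma cells carry a heavy load of newly made secreted protein.

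Library totals recovered from the deposited values, which matched the fragments on protein-coding genes, ran from 12.11 to 20.31 M (mega) fragments. The plasma cell markers summed to between 186 and 619 FPKM in the DMSO libraries and between 212 and 469 with I3MO, although XBP1, one of the 9, was listed at 0 in every library. FPKM stands for the fragments of a gene divided by its length in kilobases and by the M fragments of the library total above. All 4 T cell markers were under 1 FPKM in every library, as were 3 of 4 myeloid, 4 of 5 stromal and 3 of 4 erythroid markers. The summed epithelial markers reached 30.3 FPKM with DMSO and 32.2 with I3MO, led by KRT18 and EPCAM in ANBL6 and RPMI8226. The summed endothelial markers reached 27.0 FPKM with DMSO and 10.3 with I3MO, nearly all of it PECAM1 in ANBL6BR. What part these markers have in the values below was not tested. ANBL6 with I3MO had 32668 and 28419 genes above 0 in its libraries, against 22138 and 22710 with DMSO. In these bulk samples, fewer cells of a kind and less RNA per cell cannot be told apart.

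ASNS, ASS1, CTH, CHAC1 and PYCR1, 5 of the 8 genes, had higher FPKM in both I3MO libraries than in both DMSO libraries in all 5 models, where 3.12% of all tested genes did so. ASS1, CTH and CHAC1 rose in each of the 5 models, and 0.293% of the tested genes rose in all 5. ASNS rose in 4 models (not called in ANBL6BR), PYCR1 in 4 (not called in ANBL6), CBS in 3, ASL in 1 and ALDH18A1 in none. Of all tested genes 1.27% rose in at least 4 models and 3.74% in at least 3. No member was called lower in any model, except that after median-ratio scaling of the libraries ASL and ALDH18A1 were called lower in ARP1, as was ALDH18A1 without ARP1 DMSO replicate 2. A gene was called when the adjusted p of limma on log2(FPKM + 1) was under 0.05, adjusted over all tested genes of the comparison.

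By model, 4 of the 8 members rose in ANBL6, where 4.1% of all tested genes rose and 3.87% fell (7.97% called in all). In ANBL6BR 5 of 8 rose, against 10.0% of all tested genes that rose and 8.4% that fell (18.4% called). In ARP1 6 of 8 rose, against 23.1% that rose and 13.9% that fell (37.0% called). In RPMI8226 6 of 8 rose, against 6.19% that rose and 8.62% that fell (14.8% called). In U266 6 of 8 rose, against 10.5% that rose and 15.8% that fell (26.2% called). The median member moved by 0.80 in ANBL6, 0.44 in ANBL6BR, 1.26 in ARP1, 0.84 in RPMI8226 and 1.39 in U266 on the log2(FPKM + 1) scale. The median over all tested genes was between -0.021 and 0.029 in these comparisons. After median-ratio scaling of the libraries the share of all calls that were higher went from 51.4% to 36.7% in ANBL6 and from 62.5% to 40.2% in ARP1. The ARP1 I3MO libraries had a scaling factor 0.29 higher on the log2 scale than the ARP1 DMSO libraries.

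**Figure D1:**
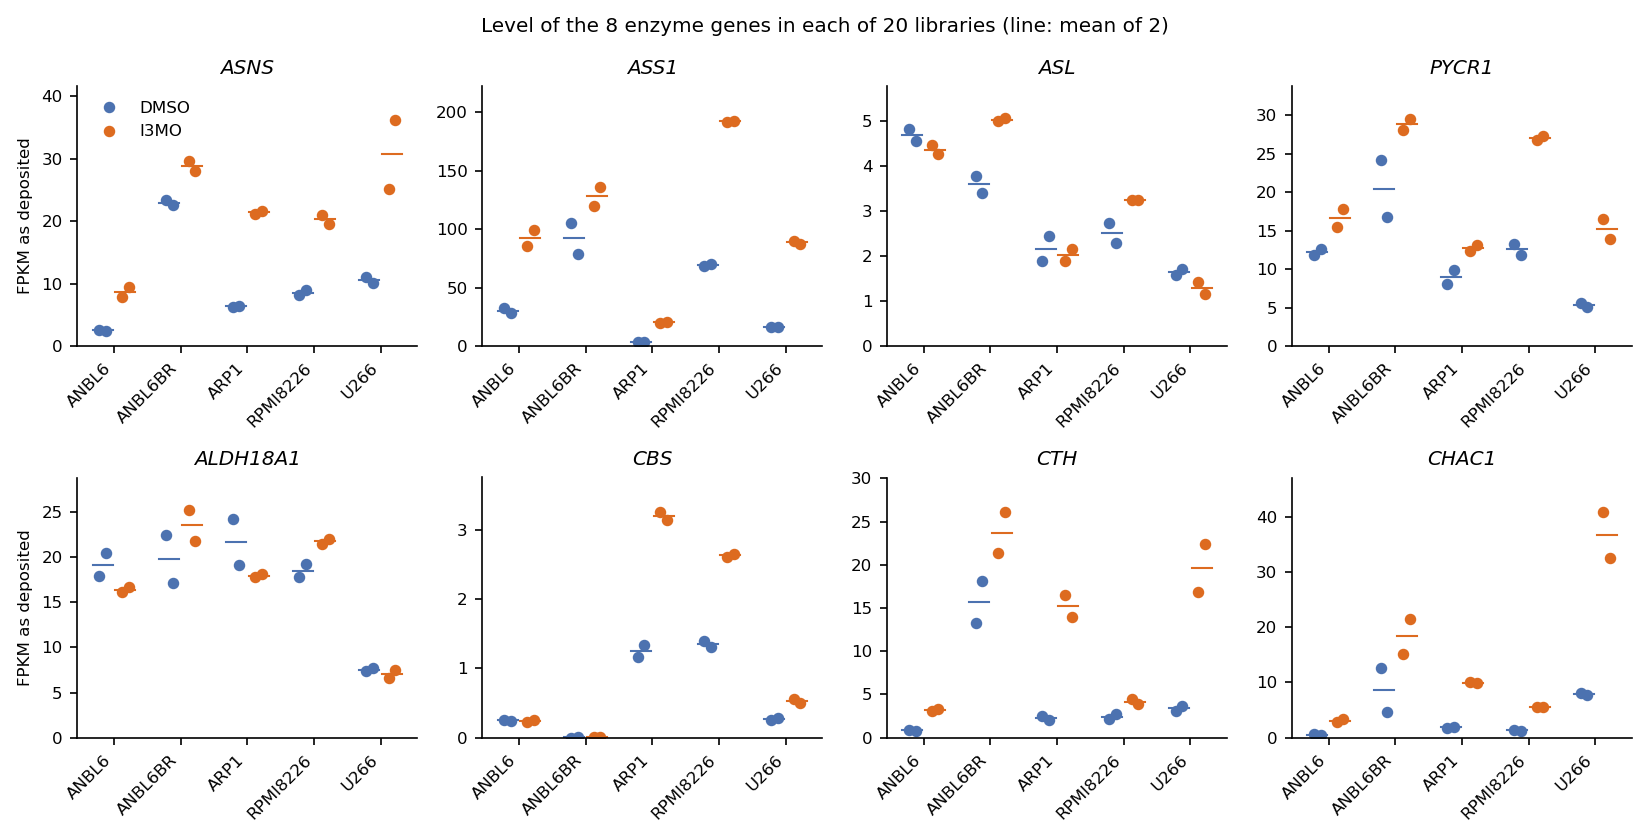
Level of each of the 8 genes as deposited FPKM (vertical axis, from 0, on its own scale for each gene) in every library of the 5 models, with DMSO in blue and I3MO in orange; each point is 1 library and each line the mean of 2. For ASNS, ASS1, PYCR1, CTH and CHAC1 both orange points lie above both blue points in all 5 models, while ALDH18A1 has no such pattern.

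ASNS (ENSG00000070669.15, chr7:97852118-97872542, minus strand, GRCh38) is the only human enzyme that makes asparagine from aspartate. With DMSO it was lowest in ANBL6, at 2.54 and 2.47 FPKM, and rose to 7.93 and 9.40 FPKM with I3MO. In ANBL6BR it was at 23.4 and 22.5 FPKM with DMSO and at 29.6 and 27.9 FPKM with I3MO. ANBL6BR thus held more ASNS without I3MO than ANBL6 did with it.

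In ARP1 ASNS went from 6.26 and 6.42 FPKM with DMSO to 21.2 and 21.7 FPKM with I3MO. RPMI8226 had 8.12 and 8.91 FPKM with DMSO and 21.0 and 19.6 FPKM with I3MO. U266 had 11.1 and 10.1 FPKM with DMSO, and its I3MO libraries lay apart at 25.2 and 36.2 FPKM. The treatments did not overlap in any model.

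On the log2(FPKM + 1) scale ASNS rose by 1.46 ± 0.13 (SE) in ANBL6 (limma adjusted p = 4.30e-05), by 1.61 ± 0.13 in ARP1 (4.37e-06), by 1.16 ± 0.13 in RPMI8226 (8.75e-05) and by 1.43 ± 0.13 in U266 (6.24e-06). The mean FPKM was 3.46, 3.38, 2.38 and 2.90 times as high in these models. In ANBL6BR the difference of 0.31 ± 0.13 was not called (limma adjusted p = 0.123), with a mean FPKM 1.25 times as high. In GENCODE 29, 44.6% of the exon bases of ASNS are shared with AC079781.5, which was not analysed here.

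RefSeq promoters (GRCh38.p14, 250 bases before to 50 bases after an annotated start) were on hand for 7 of the 8 members, 11 promoters in all, and they were searched on both strands for 2 motifs that do not overlap each other. TGATGNAA is the core of the element bound by ATF4 with C/EBP partners, and 3.62% of all 35116 promoters of that length hold it. TGACGTCA is the cyclic AMP response element, held by 1.85% of them and by none of the 11. TGATGNAA was in 2 of the 11, 1 promoter each of ASNS and CHAC1, and these windows are shown since they hold the match. The capitals mark the match, and each is written 5′ to 3′ on the strand of its gene. Both windows lie before a RefSeq start and inside an exon of a GENCODE 29 transcript of the same gene that starts further upstream.
ASNS, chr7:97872458-97872487, minus strand, 79 to 50 bases before the start: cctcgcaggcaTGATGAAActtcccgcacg
CHAC1, chr15:40953251-40953280, plus strand, 220 to 191 bases before the start: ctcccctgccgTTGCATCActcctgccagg
The ASNS window carries the motif as written and the CHAC1 window carries its reverse complement. A match describes these letters only, and ASS1, which moved most like ASNS, had neither motif in its 2 promoters. The other ASNS promoter and the promoters of CTH, ASL, ALDH18A1 and CBS had neither motif, and PYCR1 had no promoter on hand.

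ASS1 (ENSG00000130707.16, chr9:130444929-130501274, plus strand) reached the highest level of the 8 genes per merged exon length, 593 FPKM in an RPMI8226 library with I3MO. As deposited, it was at 32.5 and 28.2 FPKM with DMSO in ANBL6 and at 85.4 and 99.0 FPKM with I3MO. ANBL6BR had 106 and 78.9 FPKM with DMSO and 120 and 136 FPKM with I3MO. RPMI8226 had 69.0 and 69.9 FPKM with DMSO and 192 and 193 FPKM with I3MO. RPMI8226 with I3MO held the most ASS1 of all groups.

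ARP1 held the least, 3.69 and 3.42 FPKM with DMSO against 19.7 and 20.8 FPKM with I3MO. U266 had 16.7 and 16.1 FPKM with DMSO and 90.1 and 87.8 FPKM with I3MO. The replicates lay close together except in ANBL6BR with DMSO, and the treatments did not overlap in any model.

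ASS1 rose by 1.57 ± 0.12 in ANBL6 (limma adjusted p = 1.54e-05), by 2.22 ± 0.12 in ARP1 (2.83e-07), by 1.46 ± 0.12 in RPMI8226 (1.02e-05) and by 2.37 ± 0.12 in U266 (7.30e-08). The mean FPKM was 3.04, 5.70, 2.77 and 5.42 times as high. In ANBL6BR it rose by 0.48 ± 0.12 (limma adjusted p = 0.0165), 1.39 times, and this call was lost without DMSO replicate 2 (0.27, adjusted p = 0.123) or without I3MO replicate 2 (0.39, adjusted p = 0.148). Among its processed pseudogenes, ASS1P12 was listed at 0.258 to 5.57 FPKM and the others at under 1 FPKM, and whether fragments of ASS1 were counted there was not tested.

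ASL (ENSG00000126522.15, chr7:66075798-66093558, plus strand), the enzyme after ASS1, was called in 1 model. It was at 4.82 and 4.56 FPKM with DMSO and 4.46 and 4.26 FPKM with I3MO in ANBL6. In ARP1 it was at 1.89 and 2.44 FPKM with DMSO and 1.88 and 2.15 FPKM with I3MO. In U266 it was at 1.57 and 1.72 FPKM with DMSO and 1.43 and 1.16 FPKM with I3MO. Both I3MO values lay below both DMSO values in ANBL6 and U266, as for 25.0% and 31.7% of all tested genes, and overlapped them in ARP1. The differences of -0.09 ± 0.10, -0.07 ± 0.10 and -0.21 ± 0.10 were not called.

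In ANBL6BR ASL was at 3.79 and 3.40 FPKM with DMSO and at 4.99 and 5.06 FPKM with I3MO. In RPMI8226 it was at 2.74 and 2.29 FPKM with DMSO and at 3.23 and 3.25 FPKM with I3MO. Both I3MO values lay above both DMSO values in these models, as for 26.5% and 25.5% of all tested genes, and ASL rose in ANBL6BR by 0.39 ± 0.10 (limma adjusted p = 0.0138). That call was lost without DMSO replicate 2 (adjusted p = 0.0815), I3MO replicate 1 (0.0619) or I3MO replicate 2 (0.0838). The difference of 0.27 ± 0.10 in RPMI8226 was not called (limma adjusted p = 0.0825). With median-ratio scaling it was called there (0.34, adjusted p = 0.0193), and in ARP1 ASL was then called lower (-0.26, adjusted p = 0.0330). ASL had 220 to 936 fragments per library, its pseudogene ASLP1 was listed at 0.220 to 2.53 FPKM, and 17.6% of its exon bases are shared with AC068533.4, listed at 0 everywhere.

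Levels of different genes were compared only after the FPKM were rescaled to the merged exon length, since the length behind the deposited FPKM was 2.3 (ALDH18A1) to 6.33 (PYCR1) times as long. On that scale the ratio of ASS1 to ASL in ANBL6 was 5.70 and 5.23 with DMSO and 16.2 and 19.7 with I3MO. In ARP1 it went from 1.65 and 1.19 to 8.83 and 8.16. In RPMI8226 it went from 21.3 and 25.8 to 50.2 and 50.3, and in U266 from 9.01 and 7.95 to 53.2 and 64.2. The 2 treatments were separate in these 4 models. ANBL6BR overlapped, with ratios of 23.6 and 19.6 with DMSO and 20.3 and 22.8 with I3MO. No test was run on the ratios.

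**Figure D2:**
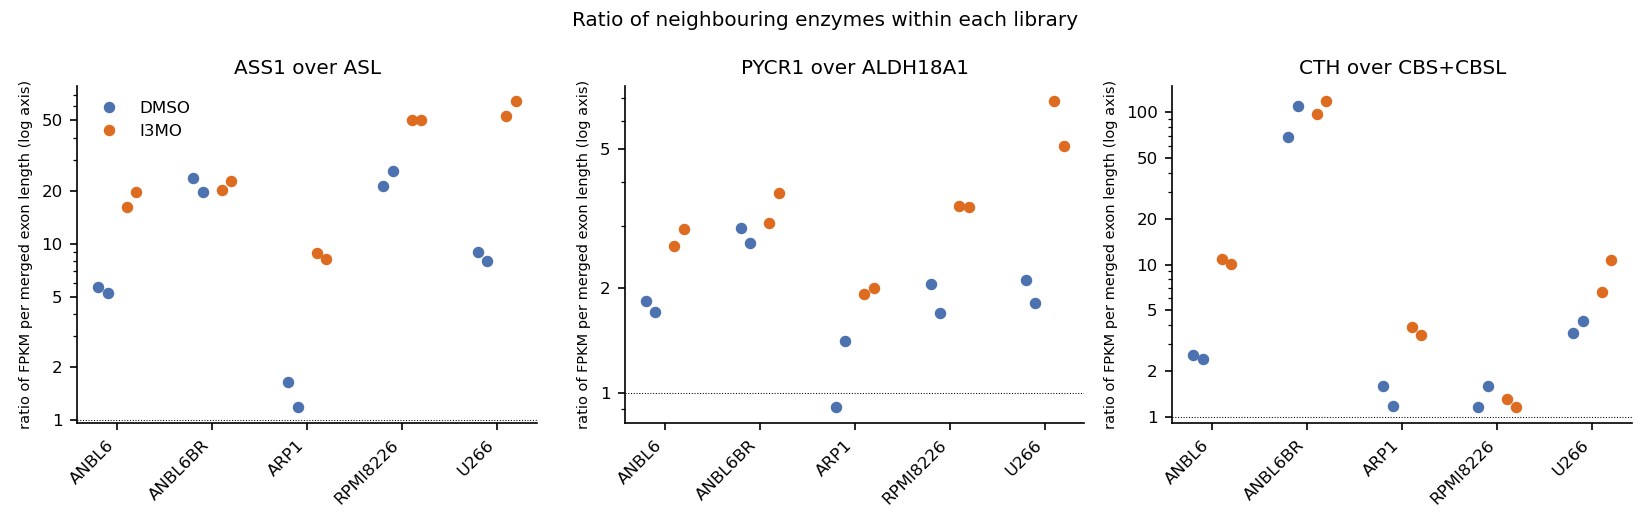
Ratio of 2 neighbouring enzymes of a pathway within each library (vertical log axis, FPKM per merged exon length), with DMSO in blue and I3MO in orange and 1 point per library. The dotted line marks equal levels, and the sum of CBS and CBSL was divided by the length of CBS. The ASS1 to ASL ratio was 53.2 and 64.2 in U266 with I3MO against 9.01 and 7.95 with DMSO, and in ANBL6BR the treatments overlap.

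Of the proline enzymes, the later one, PYCR1, rose in 4 models and the earlier one in none. PYCR1 (ENSG00000183010.15, chr17:81932384-81942412, minus strand) makes proline in mitochondria. In U266 it was at 5.65 and 5.06 FPKM with DMSO and at 16.5 and 13.9 FPKM with I3MO. In RPMI8226 it was at 13.3 and 11.9 FPKM with DMSO and at 26.8 and 27.3 FPKM with I3MO. PYCR1 rose by 1.34 ± 0.15 in U266 (limma adjusted p = 3.01e-05) and by 1.05 ± 0.15 in RPMI8226 (4.63e-04), to 2.83 and 2.15 times the mean FPKM.

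The other models moved less. ANBL6 had 11.9 and 12.6 FPKM with DMSO and 15.4 and 17.8 FPKM with I3MO, a difference of 0.41 ± 0.15 that was not called (limma adjusted p = 0.115). ANBL6BR had 24.2 and 16.7 FPKM with DMSO and 28.2 and 29.5 FPKM with I3MO, a rise of 0.50 ± 0.15 (limma adjusted p = 0.0347). That call was lost without DMSO replicate 2 (0.24, adjusted p = 0.288), I3MO replicate 1 (0.53, 0.101) or I3MO replicate 2 (0.46, 0.172), and the DMSO replicates lay far apart. ARP1 had 8.02 and 9.83 FPKM with DMSO and 12.4 and 13.2 FPKM with I3MO, a rise of 0.48 ± 0.15 (limma adjusted p = 0.0232). That call was lost after median-ratio scaling (0.21, adjusted p = 0.255), without the filter on low values (adjusted p = 0.0555), without DMSO replicate 1 (0.35, adjusted p = 0.187), and without I3MO replicate 1 (0.0711) or 2 (0.102). In GENCODE 29 29.7% of the exon bases of PYCR1 are shared with MYADML2, listed at 0.0146 to 0.215 FPKM, and with AC145207.4 on the other strand, listed at 0.

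ALDH18A1 (ENSG00000059573.7, chr10:95605929-95656706, minus strand), which makes the pyrroline-5-carboxylate that PYCR1 uses, was not called in any model. Its means were 19.2 ± 1.84 FPKM (SD, n = 2) with DMSO and 16.4 ± 0.399 with I3MO in ANBL6. They were 19.8 ± 3.75 and 23.6 ± 2.47 FPKM in ANBL6BR, and 21.8 ± 3.61 and 18.0 ± 0.263 FPKM in ARP1. They were 18.5 ± 1.09 and 21.8 ± 0.459 FPKM in RPMI8226 and 7.55 ± 0.211 and 7.07 ± 0.621 FPKM in U266. The differences ran from -0.25 ± 0.13 in ARP1 to 0.25 ± 0.13 in ANBL6BR, with both signs among the models. After median-ratio scaling the ARP1 value was -0.53 (limma adjusted p = 0.0169), called lower, as it also was without ARP1 DMSO replicate 2 (-0.42, adjusted p = 0.0448), and without ANBL6BR DMSO replicate 1 the ANBL6BR value was called higher (0.43, adjusted p = 0.0409). Per merged exon length, the ratio of PYCR1 to ALDH18A1 was 2.10 and 1.81 in U266 with DMSO and 6.83 and 5.08 with I3MO, and in ARP1 it was 0.908 and 1.41 with DMSO and 1.92 and 1.99 with I3MO.

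**Figure D3:**
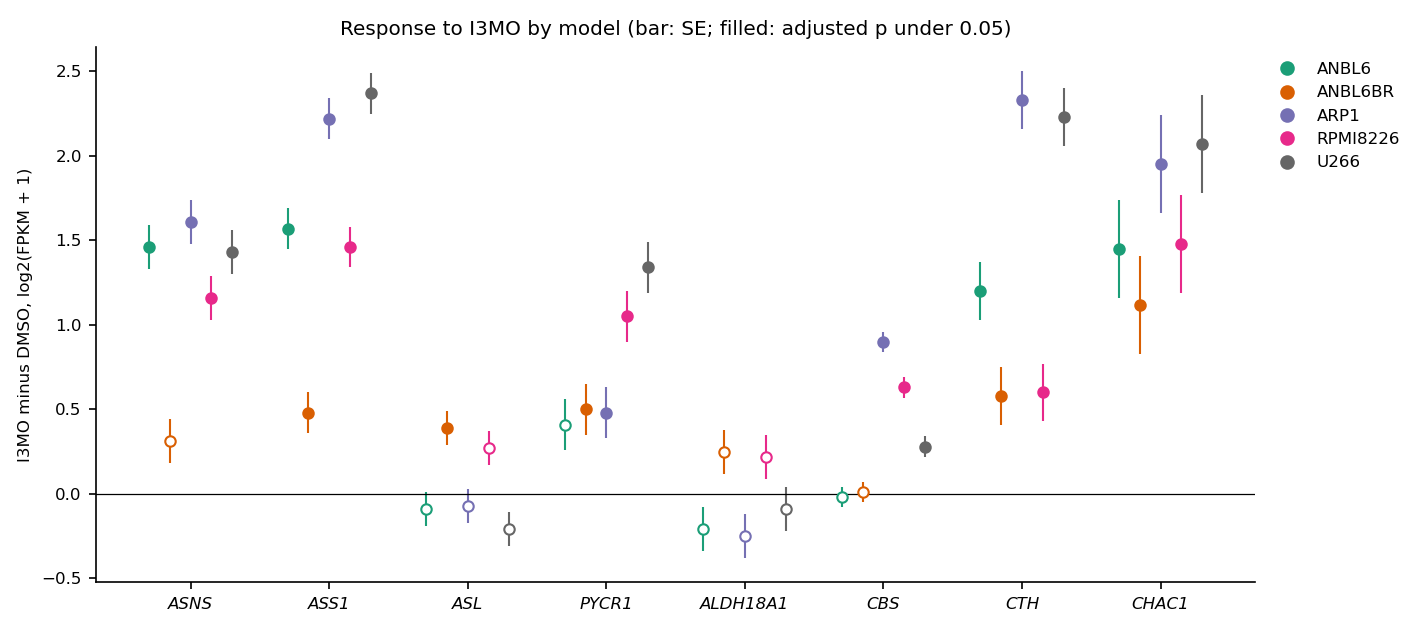
Difference between I3MO and DMSO in log2(FPKM + 1) (vertical axis) for each of the 8 genes in each of the 5 models, as fitted by limma over all 20 libraries; bars are the SE, filled points passed an adjusted p under 0.05 and open points did not. ASS1, CTH and CHAC1 are filled in all 5 models, and all 5 points of ALDH18A1 are open between -0.25 and 0.25.

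CTH (ENSG00000116761.10, chr1:70411218-70439851, plus strand), which releases cysteine from cystathionine, rose in all 5 models. In ANBL6 it was at 0.900 and 0.769 FPKM with DMSO and at 3.08 and 3.36 FPKM with I3MO. In ARP1 it went from 2.45 and 2.00 FPKM to 16.5 and 13.9 FPKM, and in U266 from 3.06 and 3.69 FPKM to 16.8 and 22.5 FPKM. The treatments were far apart in these models. CTH rose by 1.20 ± 0.17 in ANBL6 (limma adjusted p = 0.00153), by 2.33 ± 0.17 in ARP1 (2.05e-06) and by 2.23 ± 0.17 in U266 (1.60e-06), and the mean FPKM was 3.86, 6.85 and 5.83 times as high.

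RPMI8226 and ANBL6BR showed less. CTH was at 2.10 and 2.71 FPKM with DMSO and at 4.42 and 3.90 FPKM with I3MO in RPMI8226, a rise of 0.60 ± 0.17 (limma adjusted p = 0.0319). The adjusted p was 0.0515 without DMSO replicate 2, 0.0833 without I3MO replicate 2, 0.191 without I3MO replicate 1, 0.214 without DMSO replicate 1 and 0.0786 without the filter on low values, so the call rested on all 4 libraries. In ANBL6BR CTH was at 13.3 and 18.1 FPKM with DMSO and at 21.3 and 26.1 FPKM with I3MO, a rise of 0.58 ± 0.17 (limma adjusted p = 0.0334). That call was lost without DMSO replicate 1 (0.37, adjusted p = 0.215), without I3MO replicate 2 (0.44, 0.253), after median-ratio scaling (0.52, 0.103) and without the filter on low values (0.0873).

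CBS (ENSG00000160200.16, chr21:43053191-43076943, minus strand) makes the cystathionine that CTH splits, and GRCh38 holds a near-identical copy of it, CBSL (ENSG00000274276.3, chr21:6444869-6468040). The FPKM do not show how fragments that match both copies were counted, so the values of CBS alone are uncertain. In ANBL6BR CBS had 0 and 2 fragments with DMSO and 2 and 3 with I3MO, while CBSL had 50 and 40 with DMSO and 56 and 60 with I3MO. In ANBL6 CBS had 84 and 78 fragments with DMSO and 69 and 67 with I3MO, while CBSL had 8 and 5, then 3 and 5. The copy named CBSL took 95.2% to 100% of the summed fragments in ANBL6BR, 59.8% to 72.7% in U266 and 1.8% to 8.7% in ANBL6, ARP1 and RPMI8226. The 0 of ANBL6BR is compatible with up to 3 fragments when counting error alone is considered.

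In ARP1 CBS was at 1.16 and 1.33 FPKM with DMSO and at 3.25 and 3.14 FPKM with I3MO, a rise of 0.90 ± 0.06 (limma adjusted p = 1.41e-06). In RPMI8226 it was at 1.39 and 1.31 FPKM with DMSO and at 2.60 and 2.65 FPKM with I3MO, a rise of 0.63 ± 0.06 (3.28e-05). In U266 it was at 0.247 and 0.280 FPKM with DMSO and at 0.558 and 0.502 FPKM with I3MO, a rise of 0.28 ± 0.06 (limma adjusted p = 0.00522). Both I3MO values lay above both DMSO values in these 3 models, as for 38.8%, 25.5% and 23.1% of all tested genes. With the fragments of CBS and CBSL summed, a choice made after seeing the data, the U266 rise was 0.76 ± 0.07 (limma adjusted p = 6.55e-06), 2.70 times the mean FPKM, beside 0.91 in ARP1 and 0.62 in RPMI8226. The sum in ANBL6 (-0.03 ± 0.07) and ANBL6BR (0.04 ± 0.07) was not called. Per merged exon length, CTH was at 69.0 and 111 times the sum in ANBL6BR with DMSO and at 1.15 and 1.60 times the sum in RPMI8226 with DMSO. The sum was divided by the length of CBS throughout, 6786 merged exon bases against 4004 for CBSL. In ANBL6BR, where nearly all fragments were named CBSL, this lowers the sum and raises the ratio. Per merged exon length, the sum there was 0.469 FPKM with DMSO, below the 0.778 FPKM of CBSL over its own length.

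**Figure D4:**
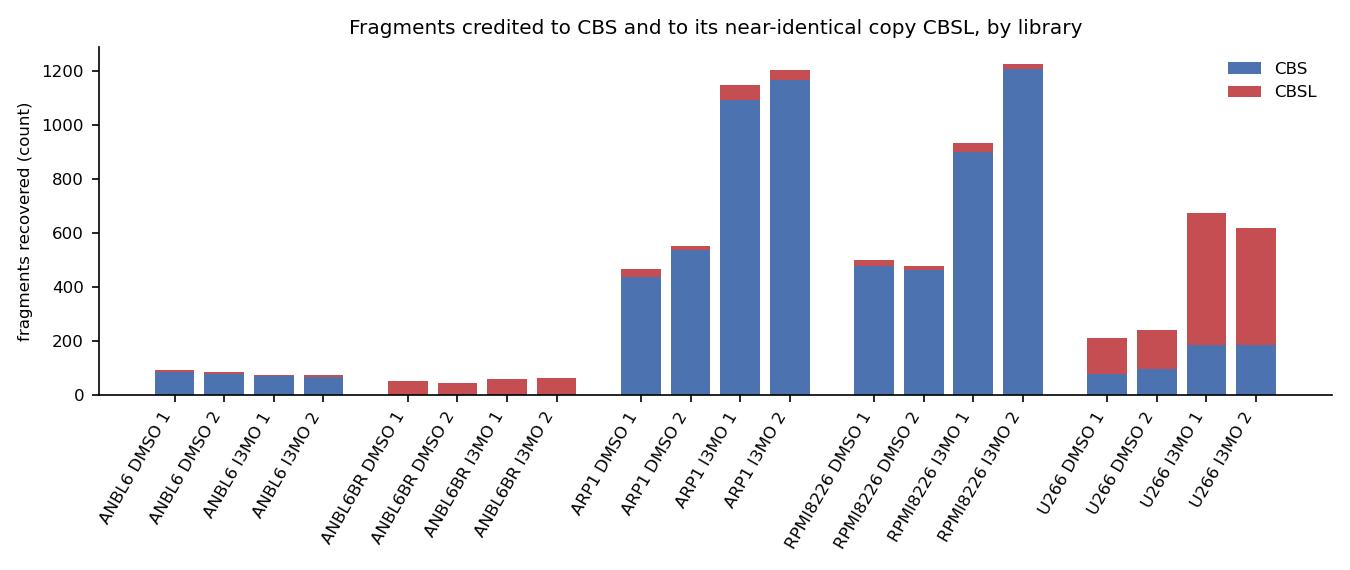
Fragments recovered for CBS (blue) and its near-identical copy CBSL (red), stacked, in each of the 20 libraries (vertical axis, count from 0). Nearly all fragments are named CBSL in ANBL6BR and CBS in ANBL6, ARP1 and RPMI8226, and U266 has both.

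CHAC1 (ENSG00000128965.10, chr15:40952962-40956519, plus strand) cuts glutathione into cysteinyl-glycine, which still holds the cysteine, and 5-oxoproline. In ANBL6 it was at 0.577 and 0.398 FPKM with DMSO and at 2.84 and 3.29 FPKM with I3MO. In ARP1 it was at 1.66 and 1.99 FPKM with DMSO and at 10.0 and 9.80 FPKM with I3MO. In RPMI8226 it was at 1.43 and 1.26 FPKM with DMSO and at 5.52 and 5.59 FPKM with I3MO. The treatments were well apart in these models.

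U266 held the most CHAC1 with I3MO, 40.8 and 32.5 FPKM against 8.07 and 7.79 FPKM with DMSO. In ANBL6BR the DMSO libraries differed, at 12.6 and 4.69 FPKM, and the I3MO libraries were at 15.1 and 21.5 FPKM. CHAC1 rose by 1.45 ± 0.29 in ANBL6 (limma adjusted p = 0.0107), by 1.95 ± 0.29 in ARP1 (2.97e-04), by 1.48 ± 0.29 in RPMI8226 (0.00429) and by 2.07 ± 0.29 in U266 (2.09e-04). The mean FPKM was 6.29, 5.43, 4.13 and 4.62 times as high. The ANBL6 call was lost without DMSO replicate 1 (adjusted p = 0.0507), DMSO replicate 2 (0.0935) or I3MO replicate 2 (0.0907). The ANBL6BR rise was 1.12 ± 0.29 (limma adjusted p = 0.0183), 2.12 times the mean FPKM. It was lost without DMSO replicate 2 (0.49, adjusted p = 0.0957), without I3MO replicate 2 (0.87, 0.165) and without the filter on low values (0.0535), and it was 1.74 without DMSO replicate 1.

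The 5 calls in ANBL6BR thus rested on few libraries. Leaving out DMSO replicate 2 left 1 member called, against 15.7% of all tested genes. Leaving out I3MO replicate 1 left 3 (11.4% of all) and leaving out I3MO replicate 2 left none (9.04% of all). The 2 DMSO libraries of ANBL6BR correlated at r = 0.97 across the tested genes, which are not independent replicates, and the pairs of the other groups at 0.962 to 0.989.

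Whether the responses differed between models was tested with 1 F test per gene over the 5 models. The responses of 6 of the 8 members differed, against 44.5% of all tested genes: ASNS, ASS1, ASL, PYCR1, CBS and CTH. CHAC1 (limma adjusted p = 0.261) and ALDH18A1 (0.0911) were not called. Over the 10 pairs of models 5.55% to 30.6% of all tested genes were called, and the pairs share libraries. ASS1 differed in 8 of 10 pairs, CTH in 6, ASNS in 4, PYCR1 in 3, ASL in 3 and CBS counted alone in 8. With CBSL summed in, CBS differed in 7 pairs. U266 minus ARP1 went from -0.63 to -0.16 and lost its call (limma adjusted p = 0.252), U266 minus RPMI8226 turned from a called -0.35 to 0.14 (0.433), and U266 minus ANBL6BR went from 0.27 to 0.71 and was called (5.38e-04). With I3MO the mean FPKM of CBS alone was 2.01 times as high in U266, 1.95 times in RPMI8226 and 2.56 times in ARP1. The called -0.35 is thus no smaller fold in U266, since log2(FPKM + 1) understates the change of low genes. CBS alone was at 0.264 FPKM in U266 with DMSO, against 1.35 FPKM in RPMI8226. For CTH, the response in ARP1 was 1.76 ± 0.24 above that in ANBL6BR (limma adjusted p = 6.80e-04) and in U266 1.63 ± 0.24 above that in RPMI8226 (7.21e-04), at the same 10 µM dose for the latter pair. For PYCR1, U266 exceeded ARP1 by 0.87 ± 0.21 (limma adjusted p = 0.00873). For ASNS, each called pair set ANBL6BR below another model.

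ANBL6 and ANBL6BR had the same dose, 5 µM. The response in ANBL6BR was smaller by 1.14 ± 0.18 for ASNS and by 1.09 ± 0.17 for ASS1 (limma adjusted p = 0.00333 and 0.00330), 2 of 8 members against 8.47% of all tested genes and 4.33% called in that direction. The differences for CTH (-0.63 ± 0.24, adjusted p = 0.133), CHAC1 (-0.34 ± 0.41, 0.707) and PYCR1 (0.09 ± 0.21, 0.879) were not called, nor was that of ASL (0.48 ± 0.14, 0.0503). The ASL difference was called with protein-coding genes only (0.48, adjusted p = 0.0414), where 13.5% of all tested genes were, and after median-ratio scaling (0.46, 0.0462), where 6.13% were. The CTH difference was called with a pseudocount of 0.1 FPKM (-1.23, limma adjusted p = 0.0247), with merged exon lengths (-0.97, 0.0381) and with voom on recovered fragments (-1.33, 0.0465). With I3MO the mean FPKM of CTH was 3.86 times as high in ANBL6 and 1.51 times in ANBL6BR, and that of CHAC1 6.29 and 2.12 times. Both genes were under 1 FPKM in ANBL6 with DMSO, where log2(FPKM + 1) understates a change. Without ANBL6BR DMSO replicate 1, 5 members were called against 14.0% of all tested genes, with ASL (adjusted p = 0.0349), ALDH18A1 (0.0303) and CTH (0.0408) added, and without ANBL6BR DMSO replicate 2 the CHAC1 difference was called (-0.96, 0.0227).

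With DMSO alone, 3 (RPMI8226 minus ARP1) to 8 (U266 minus ARP1) members differed over the pairs of models, against 50.8% to 68.0% of all tested genes. ANBL6BR had 7 members called against each of ARP1, RPMI8226 and U266. Between ANBL6BR and ANBL6 also 7 of the 8 members differed, 5 higher and 2 lower. Of all tested genes 51.8% differed there, 27.0% higher and 24.8% lower. ASNS was higher in ANBL6BR by 2.77 ± 0.13 (9.16 times the mean FPKM), CTH by 3.17 ± 0.17 (18.8 times), CHAC1 by 2.57 ± 0.29 (17.8 times), ASS1 by 1.56 ± 0.12 (3.04 times) and PYCR1 by 0.67 ± 0.15 (1.67 times). The limma adjusted p were 1.64e-09, 6.31e-09, 8.15e-06, 2.64e-07 and 0.00186. Without ANBL6BR DMSO replicate 1 the values of PYCR1 and CHAC1 were 0.42 and 1.94. ASL was lower by -0.31 ± 0.10 (limma adjusted p = 0.0165), a call lost without ANBL6 DMSO replicate 1 (0.0930) or ANBL6BR DMSO replicate 2 (0.102). CBS alone was lower by -0.32 (adjusted p = 7.54e-04), and summed with CBSL the difference of -0.15 ± 0.07 was not called (adjusted p = 0.0829). These DMSO libraries are the controls of the responses above, so the levels and the responses are not independent. The mean of ASS1 was 92.2 ± 9.63 FPKM (SD, n = 2) in ANBL6 with I3MO and 92.2 ± 18.9 FPKM in ANBL6BR with DMSO.

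All 8 members differed between the 5 models with DMSO, as did 90.0% of all tested genes. The order of ASNS was ANBL6BR, U266, RPMI8226, ARP1, ANBL6, and U266 and RPMI8226 did not overlap, but their difference of 0.28 ± 0.13 was not called (limma adjusted p = 0.0768). The order of ASS1 was ANBL6BR, RPMI8226, ANBL6, U266, ARP1, each step called, with RPMI8226 at 19.6 times the mean FPKM of ARP1. ASL went from ANBL6 through ANBL6BR, RPMI8226 and ARP1 to U266, with RPMI8226 and ARP1 overlapping and not called (0.216). PYCR1 went from ANBL6BR through RPMI8226, ANBL6 and ARP1 to U266, with RPMI8226 and ANBL6 overlapping and not called (0.920). ALDH18A1 was lower in U266 than in the other 4 models, which overlapped each other with no pair called, with 0.407 times the mean FPKM of RPMI8226. CTH was highest in ANBL6BR and lowest in ANBL6, and of the neighbours not called U266 and RPMI8226 (0.0837) did not overlap while RPMI8226 and ARP1 (0.767) did. CHAC1 was highest in ANBL6BR and U266, which overlapped and were not called (0.982). Below them came ARP1, RPMI8226 and ANBL6, where neither ARP1 and RPMI8226 (0.493) nor RPMI8226 and ANBL6 (0.0748) were called, although neither pair overlapped. CBS with CBSL was highest in RPMI8226, at 1.41 ± 0.0743 FPKM, overlapping ARP1 and not called against it (0.07 ± 0.07, limma adjusted p = 0.478), and lowest in ANBL6BR, at 0.142 ± 0.0167 FPKM (SD, n = 2). The sum was divided by the length of CBS, and CBSL over its own length was at 0.181 ± 0.0275 FPKM in ANBL6BR. ANBL6BR was not called against ANBL6 for the sum (-0.15 ± 0.07, limma adjusted p = 0.0829).

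Across the models, with the mean of each model and treatment as 1 value (5 against 5, model as a block), none of the 8 members was called by limma, and 0.0% of all tested genes were. At an unadjusted p under 0.05 there were 2651 genes, ASNS, ASS1, CTH, CHAC1 and PYCR1 among them. CHAC1 moved by 1.61 ± 0.15 (adjusted p = 0.0919) and was above its DMSO mean in 5 of 5 models, as were ASS1 (1.62 ± 0.26, adjusted p = 0.0977), ASNS (1.20 ± 0.19, 0.0972), CTH (1.39 ± 0.29, 0.122) and PYCR1 (0.76 ± 0.16, 0.124). With protein-coding genes alone 3 members were called against 0.603% of all tested genes, CHAC1 (limma adjusted p = 0.0415), ASNS (0.0431) and ASS1 (0.0431), and with voom on recovered fragments the same 3 (0.0256, 0.0365 and 0.0365) against 0.734%. Without ANBL6BR DMSO replicate 1, CHAC1 was the 1 gene called of all tested (1.74, adjusted p = 0.0261), 0.00637% of them.

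Other genes of these pathways were counted from 5 lists. The shares of all tested genes that rose and fell were 4.1% and 3.87% in ANBL6 and 10.0% and 8.4% in ANBL6BR. They were 23.1% and 13.9% in ARP1, 6.19% and 8.62% in RPMI8226, and 10.5% and 15.8% in U266. The counts of list genes below stand beside these shares, and no set test was run. The median difference of the tested genes that are no members was between -0.19 (asparagine, aspartate and glutamine in U266) and 0.19 (methionine cycle and transsulfuration in ANBL6BR) over the 5 lists and 5 models, beside -0.02 to 0.03 for all tested genes. Of the other 7 tested genes of asparagine, aspartate and glutamine metabolism, 3 rose and 2 fell in ARP1, 1 rose and 2 fell in ANBL6BR, 1 rose and 1 fell in U266, 1 fell in RPMI8226 and none was called in ANBL6 (1 at an unadjusted p under 0.05). GOT1, the cytosolic enzyme that makes aspartate, rose in U266 from 36.9 ± 2.39 to 71.0 ± 8.42 FPKM (SD, n = 2; 0.92, limma adjusted p = 1.84e-04), in ANBL6BR by 0.68 and in ARP1 by 0.38. GOT2, its mitochondrial partner, fell by 0.65 in ARP1 and by 0.53 in ANBL6BR. GLUL, which makes glutamine, fell by 0.67 in RPMI8226, by 0.64 in ARP1 and by 0.23 in U266, at levels of at most 1.52 FPKM.

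Of the other 5 tested genes of arginine and the urea cycle, 2 rose in ARP1, 2 in U266 and 1 in ANBL6BR, none fell, and none was called in ANBL6 or RPMI8226 (1 and 0 at an unadjusted p under 0.05). ARG2, which breaks arginine down in mitochondria, rose by 0.93 in U266, by 0.89 in ARP1 and by 0.70 in ANBL6BR. NOS1, which makes nitric oxide from arginine, rose in U266 from 0.0688 ± 0.0100 to 2.89 ± 0.182 FPKM (1.86 ± 0.07, limma adjusted p = 3.06e-09) and was at most 0.0775 FPKM on average in the other models. OAT, which links ornithine with proline synthesis, rose in ARP1 by 0.68. The urea cycle genes OTC, CPS1 and ARG1 were under 0.3 FPKM in every library and were not tested.

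Of the other 4 tested proline genes, PYCR3, a second kind of pyrroline-5-carboxylate reductase, rose by 0.26 in RPMI8226 and by 0.24 in ANBL6BR and fell by 0.21 in ARP1. ALDH4A1, which breaks proline down, fell by 0.44 in ARP1. None of these other proline genes was called in ANBL6 or U266 (1 and 0 at an unadjusted p under 0.05).

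Of the other 12 tested genes of the methionine cycle and transsulfuration, 4 rose and 1 fell in ARP1, 2 rose and 3 fell in U266, 1 rose and 1 fell in each of ANBL6BR and RPMI8226, and none was called in ANBL6 (3 at an unadjusted p under 0.05). AHCYL2, a relative of the enzyme that frees homocysteine, rose by 0.85 in ANBL6BR and by 0.48 in ARP1, and AHCYL1 by 0.68 in ARP1 and by 0.46 in U266. MAT2B, a regulatory subunit of the enzyme that makes S-adenosylmethionine, rose by 0.37 in ARP1 and fell by 0.52 in RPMI8226 and by 0.33 in U266.

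Of the other 12 tested glutathione genes, 2 rose in RPMI8226, 1 rose and 2 fell in U266, 1 fell in ARP1, and none was called in ANBL6 or ANBL6BR (4 and 3 at an unadjusted p under 0.05). The synthesis genes GCLC, GCLM and GSS and the reductase GSR were not called in any model. CHAC2, a relative of CHAC1 with the same activity, rose in RPMI8226 from 13.1 ± 0.949 to 25.1 ± 0.754 FPKM (0.89, limma adjusted p = 8.68e-04) and fell in U266 by 0.57. OPLAH, which turns 5-oxoproline into glutamate, rose by 0.40 in U266 and by 0.37 in RPMI8226. LAP3, a peptidase that can split cysteinyl-glycine, fell by 1.32 in U266 (limma adjusted p = 2.01e-05), from 25.4 ± 0.576 to 9.64 ± 1.71 FPKM.

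**Figure D5:**
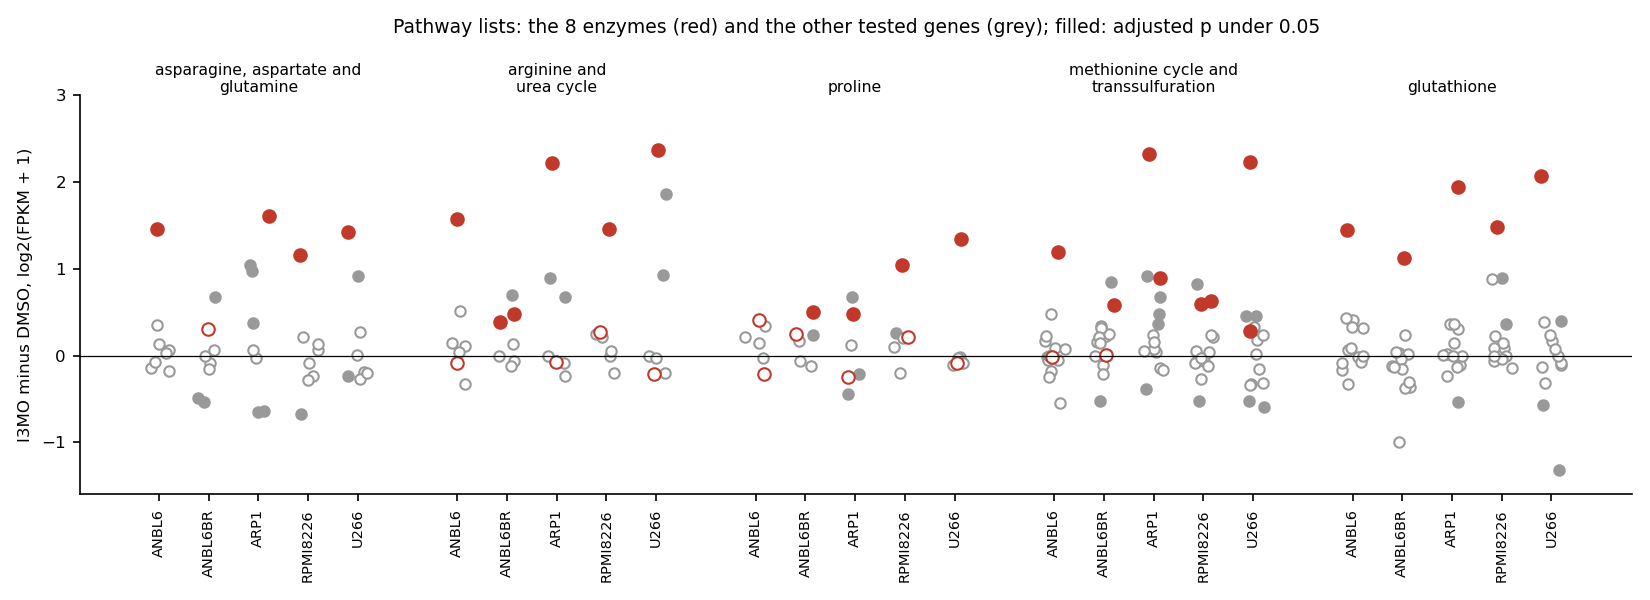
Difference between I3MO and DMSO in log2(FPKM + 1) (vertical axis) for every tested gene of 5 pathway lists in each model, with the 8 enzymes in red and the other genes in grey; filled points passed a limma adjusted p under 0.05, and OAT stands in 2 lists. The highest grey point is NOS1 in U266 at 1.86 and the lowest is LAP3 in U266 at -1.32.

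Over the 20 libraries, with the mean of each model subtracted, the members that rose most followed each other. The Pearson r was 0.97 between ASNS and ASS1, 0.97 between ASS1 and CHAC1, 0.95 between ASS1 and CTH and 0.88 between ASS1 and PYCR1. ASL and ALDH18A1 had r of -0.07 and -0.24 with ASS1 and of 0.42 with each other. Among all protein-coding tested genes the nearest to ASS1 were ATF4 (0.99), GPT2 (0.98) and PCK2 (0.98), and the nearest to ASNS were ASS1, GARS and GPT2 (each 0.97). CTH was nearest to INHBE (0.98), RSPH3 (0.97) and ASS1, and CHAC1 to PCK2 (0.98), DNAJB9 (0.98) and ASS1. PYCR1 was nearest to SLC6A9 (0.98), SHMT2 (0.97) and SEC61B (0.96). ALDH18A1 was nearest to PRPF4 (0.86), GID8 (0.84) and NOL6 (0.83), ASL to NR2F6 (0.91), ALDH16A1 (0.87) and RPL26 (0.84), and CBS to WNT11 (0.94), PPP1R12C (0.93) and MCPH1 (0.92). These values are descriptions over libraries that share treatment and depth. Treatment was not subtracted, so a shared rise with I3MO alone gives a high r. The share of all genes with such r is not given here.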

How the data were processed

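Total RNA of 20 libraries was sequenced. The deposited unit is FPKM, listed for 60483 genes, and the 20 single-library tables held the joint table's values. Per the submitters' processing notes, Trimmomatic (0.32 and 0.36), STAR and SAMtools were used with build hg38. Not given in the sources used here are the counting tool and its annotation. Symbols, positions and exons came from GENCODE 29, and promoters from RefSeq (GRCh38.p14).

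Fragments were recovered from the steps of the FPKM. With a library total equal to the fragments on protein-coding genes, a length giving whole fragments, within 0.02, was recovered for 15537 of the 15687 tested genes. Whether this length equals the summed exons of all transcripts was checked in 2876 multi-exon genes. Their identifiers had the same version as in the annotation used here, and the length fitted in all 2876. For other genes this match is not given here. The rescaling to the merged exon length used the recovered lengths.

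Genes at 1 FPKM or more in at least 2 libraries were tested on log2(FPKM + 1) by limma 3.58.1 in R 4.3.3. Each group of model and treatment had its own mean, the spread was pooled over the 10 groups of 2 libraries, and an intensity trend was used. Tests were two-sided, with Benjamini-Hochberg adjustment over all tested genes of a comparison and calls under 0.05. The fit was tested on simulated data. A fold on this scale understates the change of low genes.

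The 8 members, the 5 pathway lists, the marker lists and the motifs were chosen with earlier results of these data known. All 8 members are named whatever their values. From each list up to 3 other genes are named: those called across the models or, failing that, in the most single models, with ties set by the smallest p across models. Named too are the 3 protein-coding genes with the highest Pearson r to each member, and listed pseudogenes or copies. Other genes named (GCLC, GCLM, GSS, GSR, OTC, CPS1 and ARG1) were chosen after their values were seen. The labels give no batch. Alternatives were a pseudocount of 0.1, no filter, protein-coding genes only, median-ratio scaling, merged exon lengths, limma-voom on recovered fragments, a replicate block, each library left out, and each model fitted alone. Summing CBS with CBSL and a crossed block in ARP1 were added after seeing the data.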

Additional observations from a re-analysis of the deposited data

Results flagged for a closer look

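The responses to I3MO of 6 of the 8 genes differed between the 5 models in the joint F test of limma: CBS (adjusted p = 4.03e-05), ASS1 (6.45e-05), CTH (2.48e-04), ASNS (0.00112), PYCR1 (0.00973) and ASL (0.0137). For CBS the fragments are divided between the gene and its copy CBSL in different shares by model, and with both summed the adjusted p was 5.72e-05. On the log2(FPKM + 1) scale, ASS1 responses ran from 0.48 in ANBL6BR to 2.37 in U266 and those of CTH from 0.58 in ANBL6BR to 2.33 in ARP1. Those of ASNS ran from 0.31 in ANBL6BR to 1.61 in ARP1 and those of PYCR1 from 0.41 in ANBL6 to 1.34 in U266. Those of ASL ran from -0.21 in U266 to 0.39 in ANBL6BR. This scale understates the change of low genes. By mean FPKM, ASNS rose most in ANBL6 (3.46 times, against 3.38 in ARP1) and ASS1 most in ARP1 (5.70 times, against 5.42 in U266). Model and dose cannot be told apart between the models given 5 µM and those given 10 µM.

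At the same dose of 5 µM, the responses of ASNS (adjusted p = 0.00333) and ASS1 (0.00330) were smaller in ANBL6BR than in ANBL6 by limma. Their DMSO levels in ANBL6BR were 22.9 ± 0.614 and 92.2 ± 18.9 FPKM (SD, n = 2), against 2.51 ± 0.0466 and 30.4 ± 2.99 FPKM in ANBL6. The I3MO levels were 28.8 ± 1.19 and 128 ± 11.7 FPKM in ANBL6BR and 8.66 ± 1.04 and 92.2 ± 9.63 FPKM in ANBL6.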

How the results depend on the processing

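Of 904 values of single members under the alternatives, 820 kept their direction and their side of the threshold, 11 changed sign while called in neither fit, 52 lost a call and 21 gained one. No called value among these 904 turned its direction. With each library left out in turn, the difference of responses between ANBL6BR and ANBL6 ran from -1.25 to -1.03 for ASNS and from -1.3 to -0.88 for ASS1. The number of members called for this difference was 2, and 1 with the replicate block, where ASNS kept its call (limma adjusted p = 0.0420) and ASS1 lost it (0.0502). Across the models it was 0, against 3 with protein-coding genes only, 3 with voom on recovered fragments, and 0 to 1 with a library left out. In ANBL6 it was 4, against 0 in a fit of its own 4 libraries and 3 to 4 with a library left out. In ANBL6BR it was 5, against 2 without the filter, 2 with the replicate block, 0 in a fit of its own 4 libraries and 0 to 5 with a library left out. A fit of 4 libraries has fewer samples behind its spread. The shares of all tested genes called without the filter, with the replicate block and in the fits of 4 libraries are not given here. Whether the members lost more calls there than all tested genes did was thus not tested. For the other calls that were lost or gained, the cause was not tested. Samples with the same number did not deviate together (r from -0.113 in ARP1 to 0.034 in ANBL6BR), so the block is a check on a number only. With the 2 ARP1 I3MO numbers crossed, a choice made after seeing the data, 6 members were called in ARP1, as without a block. CBS alone had 0 to 3 fragments per library in ANBL6BR, where 95.2% to 100% of the fragments of both copies were named CBSL, and no change of CBS alone was detectable from these counts.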
